A study of Rattus with 6 samples.

Results

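The constitutive proteasome genes of vascular smooth muscle cell cultures were compared between cells given an siRNA against CDCP1 and cells given a control siRNA. The set held every protein-coding gene of the deposited table whose name began with Psm, a letter from a to g and a digit, leaving out the immunoproteasome genes Psmb8, Psmb9 and Psmb10. This rule took 47 of the 54012 genes in the table. They were sorted by role into 8 alpha and 8 beta subunits of the core particle, 9 subunits of the base and 8 of the lid of the regulatory particle, 6 activators and inhibitors, 7 assembly factors, and 1 gene, Psmc3ip, that met the rule by its name alone.

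The si-CDCP1 group held 3 libraries with the genotype label CDCP1 knockdown, and the si-NC group held 3 libraries with the genotype label WT. Every library came from a primary culture of aortic cells labelled as vascular smooth muscle, and every culture received angiotensin II (Ang II), a vasoconstrictor peptide that also drives smooth muscle growth. In the si-CDCP1 cultures it was added after the knockdown. No culture without Ang II or without siRNA was analysed here. Nothing in the labels ties a replicate to an animal or isolation of its own, so the p-values below rest on the scatter of these 6 libraries, and that scatter may be technical.

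The proteasome is the protease that degrades most short-lived and damaged proteins once they carry ubiquitin chains. Its core particle is a barrel of stacked rings, with alpha subunits outside as a gate and beta subunits inside, among them the proteolytic subunits Psmb5, Psmb6 and Psmb7. The regulatory particle caps the barrel: the ATPases of its base unfold the substrate and its lid removes the ubiquitin. Subunits are made in step with one another, and in mammals the transcription factor encoded by Nfe2l1 raises many of their transcripts together when the proteasome is short of capacity. In arteries, the proteasome is known for turning over regulators of smooth muscle growth and inflammation.

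Reads in listed genes came to between 16230958 and 17295710 per si-CDCP1 library and to between 16050517 and 19771638 per si-NC library. Levels are FPKM, which divide a gene's fragments by its length and by the size of its library, and 3 reads in a gene of 1 kb were worth between 0.149 and 0.192 FPKM. The organism label is rat, whereas the table lists mouse genes on mm10, a mouse build, so that a transcript with a low value may still have been present. The siRNA target Cdcp1 had 0, 5 and 0 reads in si-CDCP1 replicates 1, 2 and 3 and 2, 2 and 1 reads in si-NC replicates 1, 2 and 3, too few to check the labels by it. Of the 10 contractile smooth muscle markers only Acta2 and Smtn averaged at least 1 FPKM, and Myh11, which defines differentiated smooth muscle, averaged 0.0351 FPKM in si-CDCP1 cells and 0.0130 FPKM in si-NC cells. The 10 together summed to between 45.2 and 76.3 FPKM in si-CDCP1 libraries and between 46.7 and 51.2 FPKM in si-NC libraries. Fibroblast markers, mostly Col1a1, summed to between 275 and 310 FPKM in si-CDCP1 and between 277 and 310 FPKM in si-NC libraries. The endothelial marker Cdh5, the macrophage marker Adgre1 and the T cell marker Cd3e were listed at 0 in all 6 libraries. Endothelial markers summed to between 0.802 and 0.874 FPKM in si-CDCP1 and between 0.676 and 0.742 FPKM in si-NC libraries, and macrophage and blood markers, mostly Cd14, to between 12.8 and 14.3 FPKM in si-CDCP1 and between 12.3 and 14.5 FPKM in si-NC libraries. T cell markers, mostly Lck, summed to between 5.95 and 7.54 FPKM in si-CDCP1 and between 5.66 and 6.24 FPKM in si-NC libraries. Among single markers, Cd68 averaged 0.822 ± 0.0936 FPKM in si-CDCP1 cells and 1.27 ± 0.0462 FPKM in si-NC cells, and Pdgfra 8.69 ± 0.984 FPKM in si-CDCP1 cells and 10.4 ± 0.361 FPKM in si-NC cells (SD, n = 3 each). Cd68 rested on 51 reads in si-CDCP1 and 87 in si-NC libraries. Other markers of the same lists did not follow. In si-CDCP1 and si-NC cells Cd14 averaged 12.8 and 11.9 FPKM and Dpt 0.821 and 0.337 FPKM. Col1a1 averaged 278 and 279 FPKM and Dcn 1.26 and 1.27 FPKM. The part of these markers in the results below was not tested. The library of si-CDCP1 replicate 3 stood apart, correlating with the other 5 at between 0.979 and 0.983 across genes. The libraries' FPKM summed to between 286916 and 294678 in si-CDCP1 and between 280056 and 282051 in si-NC cells. These sums thus differed between the groups, while the median log2 difference over all genes tested, si-CDCP1 minus si-NC, was 0.01.

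Nearly every proteasome gene had a somewhat higher mean in si-CDCP1 cells, but no single one passed the test. Of the 44 members tested, those with a mean of at least 1 FPKM, 41 had a positive log2 difference, si-CDCP1 minus si-NC on the log2(FPKM + 1) scale, against 52.3% of all 12080 genes tested. With libraries brought to equal FPKM sums 35 members were positive, against 38.3% of all genes, with the median log ratio 39, against 49.7%, and with equal quantiles 31, against 49.1%. The remaining 3 members, Psme1, Psme2b and Psmf1, had a negative one, against 47.7% of all genes. The median difference was 0.11 over the 44 members and 0.01 over all genes tested. By limma with Benjamini-Hochberg adjustment 0 of 44 members were called at an adjusted p under 0.05, where 0% of all genes were called. At an unadjusted p under 0.05, 14 of 44 members (31.8%) were higher in si-CDCP1 cells, against 8.94% of all genes, and 0 were lower, against 5.31% of all genes. Those 14 differed by between 9.44% (Psmd11) and 20.1% (Psme3) on the FPKM + 1 scale. A difference in these cultures can come from the mix of cells or from the RNA per cell, and these cannot be told apart.

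The count of 14 rested on which libraries were used. Without si-NC replicate 1, 2 or 3 it was 9, 6 or 8 of 44, while the share of all genes was 5.30%, 4.95% or 5.87%. Without si-CDCP1 replicate 3 it was 17, against 10.8% of all genes. The median over members stayed between 0.099 and 0.120 when any 1 library was left out. With each library brought to the same FPKM sum, 6 members were higher at an unadjusted p under 0.05, against 4.44% of all genes, and the median was 0.055 over members and -0.039 over all genes. Quantile normalisation gave 5 members, against 6.54% of all genes, and medians of 0.024 over members and -0.003 over all genes. The median log ratio gave 12 members, against 7.88% of all genes, and medians of 0.099 over members and -0.001 over all genes. The size of the difference thus depended on which scaling was used.

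**Figure D1:**
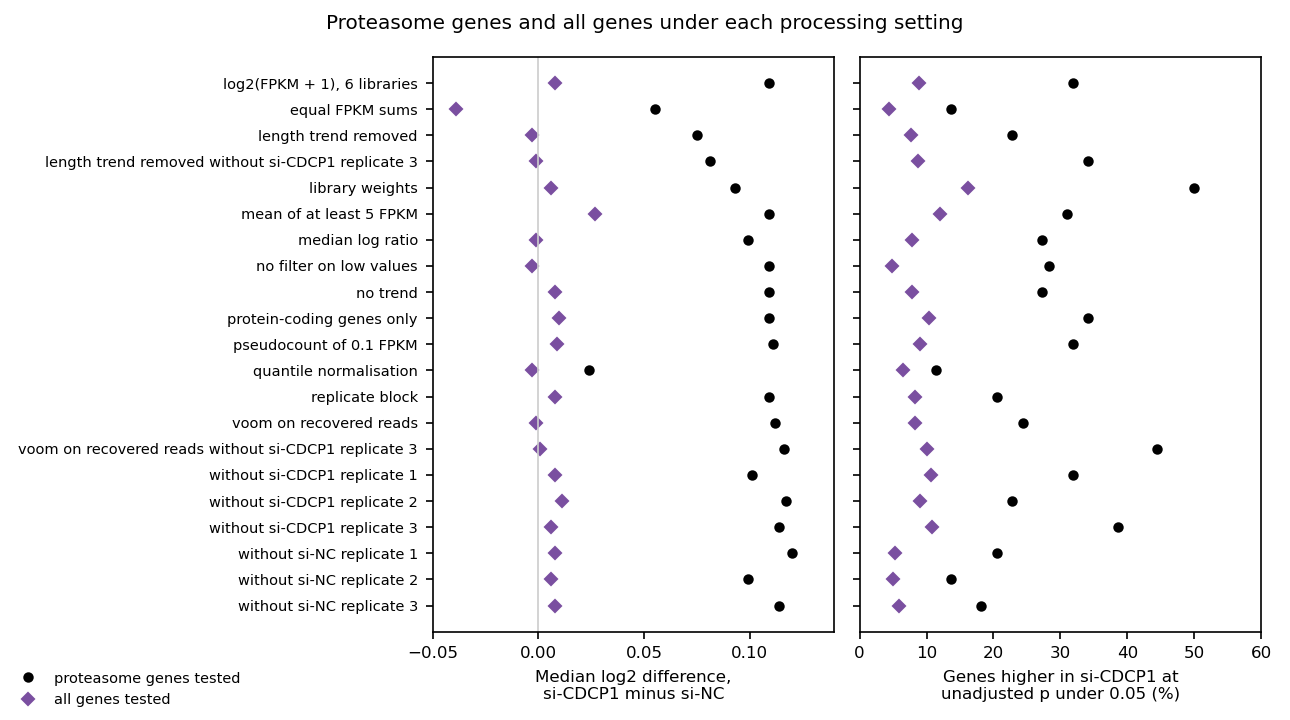
Each row is 1 processing setting, with the setting used in the text on top. Black points stand for the tested proteasome genes and diamonds for all genes tested: the left panel plots the median log2 difference, si-CDCP1 minus si-NC, and the right panel the percent of genes higher in si-CDCP1 at an unadjusted p under 0.05. The black points lie right of the diamonds in every row, closest under quantile normalisation.

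**Figure D2:**
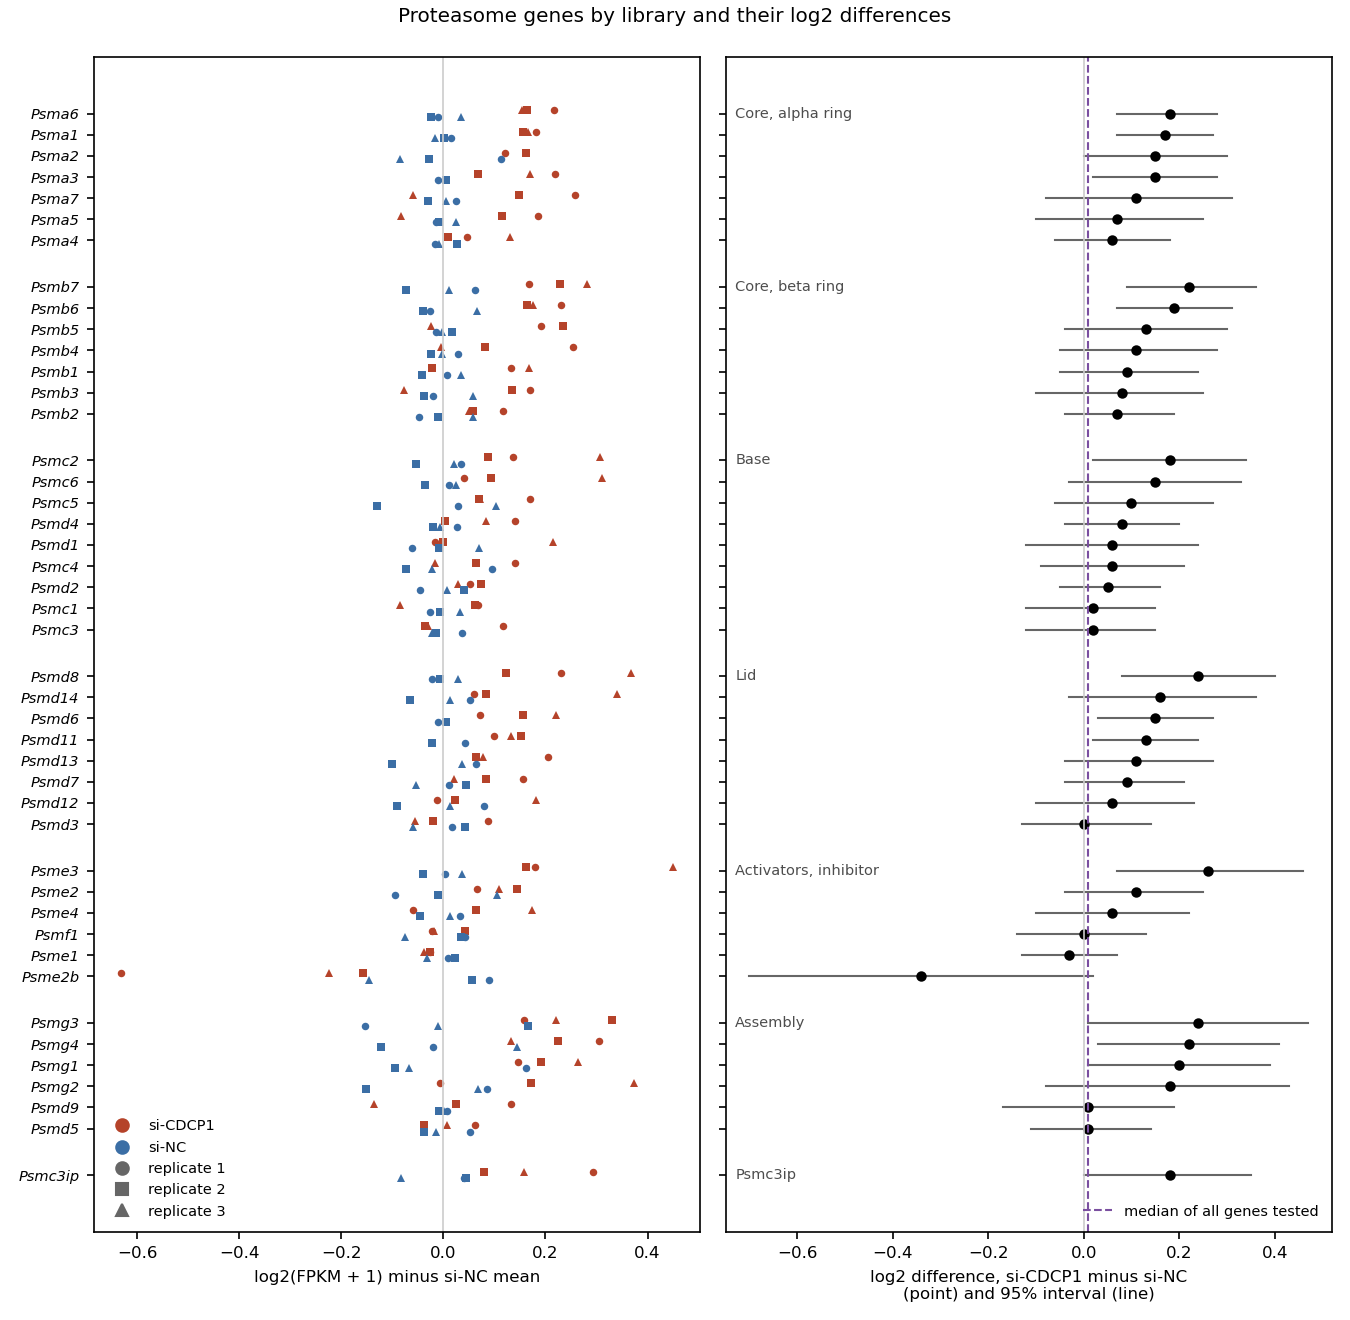
Each row is 1 proteasome gene, grouped by part and sorted by difference. The left panel plots each library's log2(FPKM + 1) minus the si-NC mean, and the right panel the log2 difference between si-CDCP1 and si-NC with its 95% interval from limma. Of the 44 genes, 41 lie right of 0, and Psme2b lies farthest left.

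Some settings called single members. With limma library weights, 8 of 44 members were called at an adjusted p under 0.05, all higher in si-CDCP1 cells, against 4.62% of all genes called higher, and 22 were higher at an unadjusted p under 0.05, against 16.2% of all genes. These weights were 0.6, 5.11 and 0.165 for si-CDCP1 replicates 1, 2 and 3 and between 1.08 and 1.37 for the si-NC libraries, so that the si-CDCP1 values came mostly from replicate 2. With limma voom on the reads recovered from the FPKM, leaving out si-CDCP1 replicate 3, 6 of 45 members were called, all higher, against 2.40% of all genes, and 20 were higher at an unadjusted p under 0.05, against 10.0% of all genes. Voom on all 6 libraries called 0 members, against 0% of genes called higher and 5 genes in all, and 11 members were higher at an unadjusted p under 0.05, against 8.21% of all genes. The 4 members called in both fits were the alpha subunit Psma6, the proteolytic subunits Psmb5 and Psmb6, and the activator Psme3. Their adjusted p from limma ran over the settings between 0.0273 and 0.645 for Psma6, between 0.0127 and 0.904 for Psmb5, between 0.0331 and 0.645 for Psmb6, and between 0.0347 and 0.645 for Psme3.

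In the core particle all 14 tested subunits had positive differences, between 0.06 and 0.22 with a median of 0.12 that was 0.07 with equal FPKM sums and 0.04 with quantile normalisation, although Psma4 and Psmb2 stood at -0.01 and -0.00 under quantile normalisation. Summed over them, the core came to 930, 887 and 861 FPKM in si-CDCP1 replicates 1, 2 and 3, against 818, 808 and 831 FPKM in si-NC replicates 1, 2 and 3. Every si-CDCP1 sum lay above every si-NC sum, with replicate 3 closest to them. As a share of each library's own FPKM sum the core held 0.316%, 0.309% and 0.292% in si-CDCP1 replicates 1, 2 and 3, against 0.291%, 0.288% and 0.294% in si-NC replicates 1, 2 and 3. On that scale the groups overlapped, with si-CDCP1 replicate 3 among the si-NC libraries.

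Among the alpha subunits, which form the gated outer rings, the median difference was 0.15, and 0.10 with equal FPKM sums and 0.09 with quantile normalisation. Psma6 had 81.1, 78.2 and 77.6 FPKM in si-CDCP1 replicates 1, 2 and 3, against 69.2, 68.5 and 71.4 FPKM in si-NC replicates 1, 2 and 3. The groups did not overlap, and the means were 78.9 ± 1.87 FPKM in si-CDCP1 and 69.7 ± 1.53 FPKM in si-NC cells (SD, n = 3 each, as throughout). The log2 difference came to 0.18 (SE 0.044, 95% interval 0.07 to 0.28, limma adjusted p = 0.267). This gene lies on chromosome 12 (mm10, chr12:55384222-55418454, plus strand). Psma1 had 26.3, 25.8 and 26.0 FPKM in si-CDCP1 libraries and 23.3, 23.1 and 22.8 FPKM in si-NC libraries. All si-CDCP1 values lay above all si-NC values, and the log2 difference was 0.17 (SE 0.043, limma adjusted p = 0.267). For Psma3 the values were 20.1, 18.0 and 19.4 FPKM in si-CDCP1 cells, against 17.0, 17.2 and 17.2 FPKM in si-NC cells. The groups were again apart, with a log2 difference of 0.15 (SE 0.055, limma adjusted p = 0.320). Psma2 had 16.3, 16.8 and 16.8 FPKM in si-CDCP1 cells and 16.2, 14.6 and 14.0 FPKM in si-NC cells. The highest si-NC library lay just under the lowest si-CDCP1 library, and the log2 difference was 0.15 (SE 0.063, limma adjusted p = 0.351). Across the 44 members, all 3 si-CDCP1 libraries lay above all 3 si-NC libraries for 14 (31.8%), against 14.4% of all genes, and 4 of these were alpha subunits.

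The other alpha subunits had smaller or more scattered differences. Psma4 had the smallest, with 41.1, 40.0 and 43.6 FPKM in si-CDCP1 cells and 39.3, 40.5 and 39.5 FPKM in si-NC cells. Its interval of -0.06 to 0.18 took in 0. Psma5 and Psma7 were high in si-CDCP1 replicates 1 and 2 and lowest of all 6 libraries in replicate 3. Psma7 had 39.9, 36.9 and 31.8 FPKM in si-CDCP1 replicates 1, 2 and 3, against 33.8, 32.5 and 33.3 FPKM in si-NC replicates 1, 2 and 3. The log2 difference of Psma7 was 0.11 with all libraries, 0.20 without si-CDCP1 replicate 3 and 0.04 without si-CDCP1 replicate 1. It was 0.06 with equal FPKM sums and 0.05 with quantile normalisation. Psma8, the testis counterpart of Psma7, was listed at 0 in all 6 libraries.

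Of the beta subunits, Psmb5, Psmb6 and Psmb7 cut peptide bonds. Psmb7, which carries the trypsin-like site, had 24.5, 25.6 and 26.6 FPKM in si-CDCP1 replicates 1, 2 and 3, against 22.7, 20.6 and 21.9 FPKM in si-NC replicates 1, 2 and 3. The lowest si-CDCP1 value lay above the highest si-NC value. Its log2 difference was 0.22 (SE 0.057, 95% interval 0.09 to 0.36, limma adjusted p = 0.267, mm10 chr2:38588036-38644087, minus strand). Psmb6, with the caspase-like site, had 71.7, 68.5 and 69.0 FPKM in si-CDCP1 cells and 59.9, 59.3 and 63.9 FPKM in si-NC cells. The groups did not overlap and the log2 difference was 0.19 (SE 0.049, 95% interval 0.07 to 0.31, limma adjusted p = 0.267). For Psmb5, which carries the chymotrypsin-like site, the values were 158, 163 and 136 FPKM in si-CDCP1 cells and 137, 140 and 138 FPKM in si-NC cells. Replicates 1 and 2 of si-CDCP1 were the highest of the 6 libraries and replicate 3 the lowest. Psmb5 had a log2 difference of 0.13 with all libraries (SE 0.073, limma adjusted p = 0.435), 0.21 without si-CDCP1 replicate 3 and 0.08 without si-CDCP1 replicate 2. It was 0.08 with equal FPKM sums and 0.03 with quantile normalisation.

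The beta subunits without a known protease site had differences between 0.07 and 0.11. Psmb2 had the smallest, with 55.5, 53.2 and 52.9 FPKM in si-CDCP1 cells and 49.4, 50.7 and 53.2 FPKM in si-NC cells. Its si-NC replicate 3 lay among the si-CDCP1 libraries. Psmb1, the highest member by mean FPKM in each group though not in reads, averaged 162 ± 11.2 FPKM in si-CDCP1 cells and 151 ± 4.17 FPKM in si-NC cells. Psmb3 and Psmb4 averaged 48.6 ± 4.45 and 104 ± 9.54 FPKM in si-CDCP1 cells, against 46.0 ± 1.66 and 96.3 ± 1.82 FPKM in si-NC cells. The median of the 7 tested beta subunits was 0.11, and 0.17 without si-CDCP1 replicate 3 and 0.07 without si-CDCP1 replicate 1. It was 0.06 with equal FPKM sums and 0.02 with quantile normalisation. Psmb11, the thymus-specific beta subunit, had 5 reads over the si-CDCP1 libraries and 9 over the si-NC libraries and was not tested.

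FPKM within the core were far from equal, although each subunit enters the barrel in the same number. In si-CDCP1 replicates 1, 2 and 3 the highest core FPKM was 10.2, 9.71 and 10.1 times the lowest, against 9.38, 10.0 and 11.1 times in si-NC replicates 1, 2 and 3. The highest was Psmb1 or Psmb5 and the lowest Psma2. FPKM divide by the deposited gene length, which was 1036 bases for Psmb1, 899 for Psmb5 and 3673 for Psma2. In reads not divided by length Psma2 was still lowest, with 3008 over the si-CDCP1 and 2993 over the si-NC libraries. Psmb4 was highest in reads, with 10055 and 10209. The range, the variation and the order given here thus depend on the lengths used. The coefficient of variation over the 14 genes ran between 72.7% and 73.8% in si-CDCP1 libraries and between 73.5% and 73.7% in si-NC libraries. By mean FPKM in si-CDCP1 cells the order was Psmb1, Psmb5, Psmb4, Psma6, Psmb6, Psma5, Psmb2, Psmb3, Psma4, Psma7, Psma1, Psmb7, Psma3 and Psma2. Neighbours such as Psmb1 and Psmb5, or Psma1 and Psmb7, lay within the spread of their libraries.

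**Figure D3:**
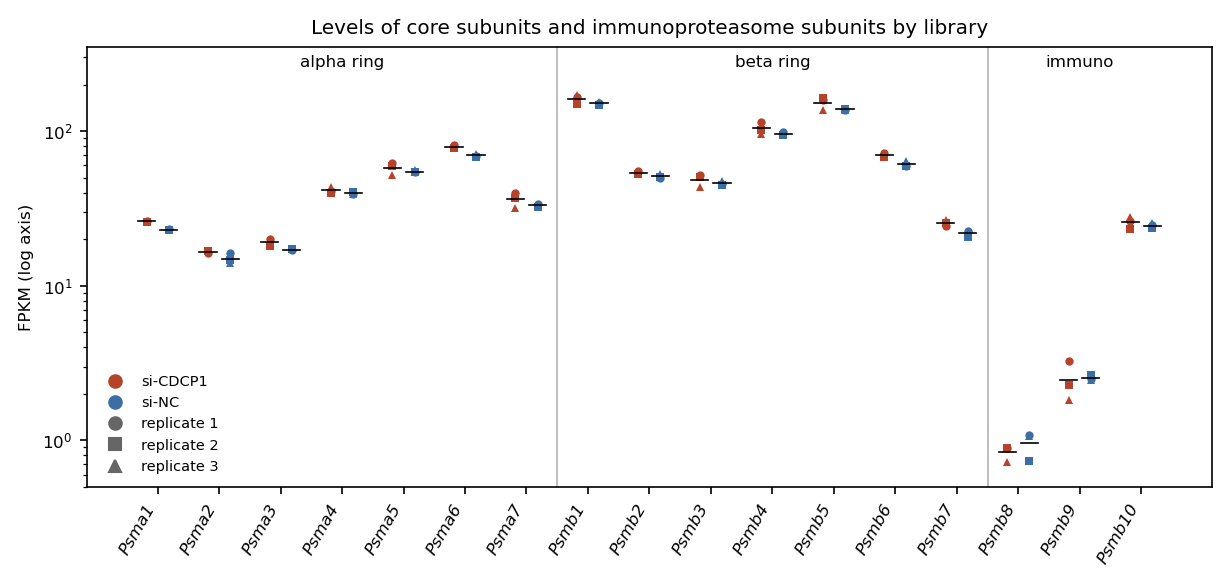
FPKM on a log axis for the 14 tested core subunits and the 3 immunoproteasome subunits, with 1 point for each library, the mean as a bar, and si-CDCP1 left of si-NC. Psmb1 and Psmb5 are highest, Psmb8 lies near 1 FPKM, and the gap between groups is small beside the gaps between genes.

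Each proteolytic subunit has an immunoproteasome counterpart that replaces it after interferon. Psmb8, the counterpart of Psmb5, averaged 0.837 ± 0.0958 FPKM in si-CDCP1 cells and 0.965 ± 0.195 FPKM in si-NC cells, under the 1 FPKM needed for testing. The ratio of Psmb5 to Psmb8 was 179, 182 and 187 in si-CDCP1 replicates 1, 2 and 3, against 126, 190 and 130 in si-NC replicates 1, 2 and 3. The ratio of Psmb6 to its counterpart Psmb9 was 22.2, 30.0 and 37.9 in si-CDCP1 libraries and 24.2, 22.2 and 26.1 in si-NC libraries, so both ratios overlapped between the groups. Psmb9 itself averaged 2.45 ± 0.722 FPKM in si-CDCP1 and 2.53 ± 0.119 FPKM in si-NC cells. Psmb10 was close in FPKM to Psmb7, which it replaces, but this rests on gene lengths of 1705 bases for Psmb10 and 3421 for Psmb7. In reads Psmb10 was lower, with 2165 against 4299 over the si-CDCP1 libraries and 2273 against 4053 over the si-NC libraries. Psmb10 had 26.3, 23.2 and 28.0 FPKM in si-CDCP1 cells and 24.7, 23.6 and 25.3 FPKM in si-NC cells. Its log2 difference was 0.07 (SE 0.075, limma adjusted p = 0.681). The ratio of Psmb7 to Psmb10 was 0.933, 1.10 and 0.951 in si-CDCP1 libraries, each above the 0.921, 0.873 and 0.866 in si-NC libraries.

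In the regulatory particle all 17 subunits had positive differences, or a difference of 0.00 for Psmd3, with a median of 0.09 that was 0.03 with equal FPKM sums and 0.01 with quantile normalisation. Psmc1, Psmc3, Psmd2 and Psmd3 were below 0 with equal FPKM sums, and also Psmc4, Psmd7 and Psmd12 with quantile normalisation. The 9 subunits of the base had a median of 0.06 and the 8 of the lid 0.12. Among the base ATPases, the ring that unfolds substrates, Psmc2 had the largest difference with all libraries. It had 44.3, 42.8 and 50.0 FPKM in si-CDCP1 replicates 1, 2 and 3, against 41.2, 38.7 and 40.8 FPKM in si-NC replicates 1, 2 and 3. The groups did not overlap, but replicate 3 carried much of the gap: the log2 difference was 0.18 (SE 0.068, 95% interval 0.02 to 0.34, limma adjusted p = 0.327) and 0.11 without replicate 3. The table describes Psmc2 by a match to a LINE-1 retrotransposon protein, and whether this bears on its value was not tested. Psmc6 had 61.3, 63.7 and 74.2 FPKM in si-CDCP1 cells and 60.1, 58.1 and 60.7 FPKM in si-NC cells, again highest in replicate 3. Psmc6 had a log2 difference of 0.15, and of 0.07 without replicate 3. Psmc1 and Psmc3 had the smallest differences of the base, both 0.02. Psmc1 had 73.6, 73.3 and 66.1 FPKM in si-CDCP1 cells, against 68.9, 69.8 and 71.8 FPKM in si-NC cells. Psmc3 had 73.4, 66.0 and 66.2 FPKM in si-CDCP1 cells, against 69.4, 67.0 and 66.6 FPKM in si-NC cells, and both genes changed sign under 5 of the 20 other settings. The large scaffold subunits Psmd1 and Psmd2 and the ubiquitin receptor Psmd4 had differences of 0.06, 0.05 and 0.08, and the ATPases Psmc4 and Psmc5 of 0.06 and 0.10. Every one of these 5 had an interval that took in 0.

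Among the lid subunits, Psmd8, which is structural, had 71.3, 66.1 and 78.5 FPKM in si-CDCP1 replicates 1, 2 and 3, against 59.7, 60.4 and 61.9 FPKM in si-NC replicates 1, 2 and 3. All si-CDCP1 libraries lay above all si-NC libraries. Its log2 difference was 0.24 (SE 0.067, 95% interval 0.08 to 0.40, limma adjusted p = 0.276) and 0.18 without replicate 3 (mm10 chr7:29174188-29180701, minus strand). Psmd6 had 27.6, 29.3 and 30.7 FPKM in si-CDCP1 cells and 26.0, 26.3 and 26.3 FPKM in si-NC cells. Its log2 difference was 0.15 (SE 0.053, limma adjusted p = 0.316). Psmd11, another scaffold subunit of the lid, had 20.3, 21.1 and 20.8 FPKM in si-CDCP1 cells, against 19.5, 18.6 and 18.6 FPKM in si-NC cells. Both genes were apart between the groups, and Psmd11 had a log2 difference of 0.13 (SE 0.047, limma adjusted p = 0.320) that was 0.13 without replicate 3 as well. The deubiquitinase Psmd14, which strips ubiquitin from the substrate, had 56.1, 57.1 and 68.4 FPKM in si-CDCP1 cells and 55.8, 51.4 and 54.3 FPKM in si-NC cells. Its groups were separated by little except in replicate 3, and its log2 difference of 0.16 was 0.07 without that library. Psmd3 had 34.8, 32.2 and 31.4 FPKM in si-CDCP1 cells and 33.1, 33.7 and 31.3 FPKM in si-NC cells, with a log2 difference of 0.00 (95% interval -0.13 to 0.14). Psmd7, the inactive partner of Psmd14, and the scaffolds Psmd12 and Psmd13 had differences of 0.09, 0.06 and 0.11, with intervals that took in 0.

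The median core FPKM was 0.957, 0.909 and 0.779 times the median FPKM of base and lid in si-CDCP1 replicates 1, 2 and 3, against 0.849, 0.929 and 0.931 times in si-NC replicates 1, 2 and 3. The groups overlapped, and si-CDCP1 replicate 3 was the lowest of the 6 libraries.

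**Figure D4:**
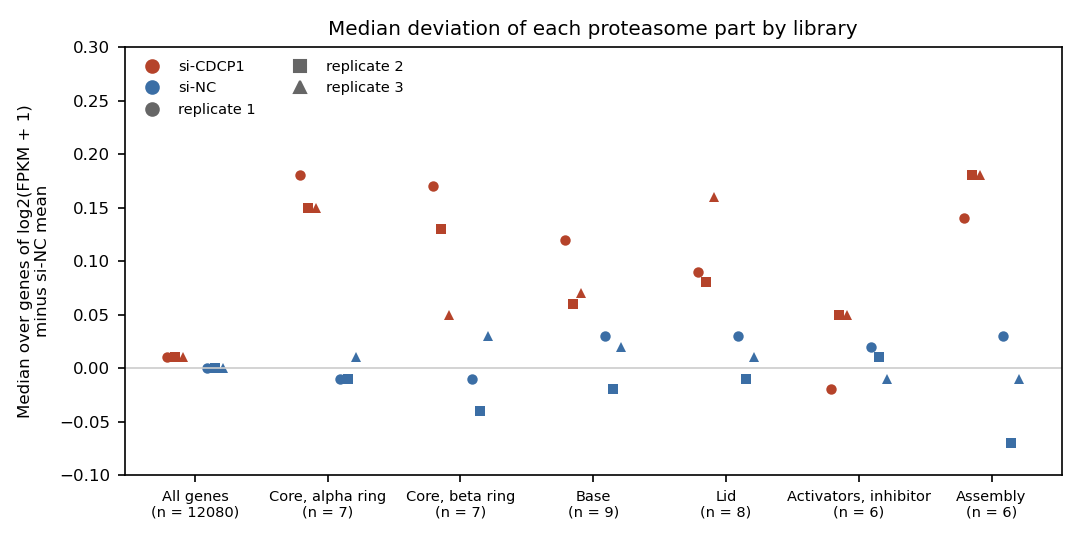
For each part, the point of a library is the median over its tested genes of log2(FPKM + 1) minus the si-NC mean, with si-CDCP1 left of si-NC. The si-CDCP1 medians of the alpha ring lie between 0.15 and 0.18 and those of the assembly factors between 0.14 and 0.18, while those of the activators lie between -0.02 and 0.05.

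The activators, which open the core gate independently of ubiquitin, had differences of both signs, with a median of 0.03 that was -0.02 with equal FPKM sums. Psme3 (PA28 gamma), the nuclear activator, had 59.9, 59.1 and 72.4 FPKM in si-CDCP1 replicates 1, 2 and 3, against 52.9, 51.3 and 54.1 FPKM in si-NC replicates 1, 2 and 3. The groups did not overlap. Its log2 difference was 0.26 (SE 0.082, 95% interval 0.07 to 0.46, limma adjusted p = 0.294) and 0.17 without si-CDCP1 replicate 3 (mm10 chr11:101316213-101323537, plus strand). This was the largest positive difference of the members on the log2(FPKM + 1) scale, but not in every setting: with library weights Psme3 stood at 0.17 and the assembly factor Psmg3 at 0.32, and with a pseudocount of 0.1 FPKM at 0.27 and 0.29. Psme1 and Psme2 encode the alpha and beta subunits of the cytosolic PA28 ring and are induced by interferon gamma. Psme1 averaged 50.8 ± 0.216 FPKM in si-CDCP1 cells and 51.8 ± 1.06 FPKM in si-NC cells, a log2 difference of -0.03 (95% interval -0.13 to 0.07). For Psme2 the means were 42.8 ± 1.21 FPKM in si-CDCP1 cells and 39.8 ± 2.83 FPKM in si-NC cells, a log2 difference of 0.11. The 2 genes are neighbours on chromosome 14 (mm10 chr14:55578123-55581529, plus strand, and chr14:55587441-55591113, minus strand). Psme4 (PA200) and the inhibitor Psmf1 (PI31) had differences of 0.06 and -0.00, both with intervals that took in 0.

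Psme2b, an intronless copy of Psme2, had the only difference below -0.03 among the members. It had 0.621, 1.25 and 1.15 FPKM in si-CDCP1 replicates 1, 2 and 3, against 1.67, 1.61 and 1.27 FPKM in si-NC replicates 1, 2 and 3, from 9, 17 and 15 reads in si-CDCP1 and 28, 22 and 19 reads in si-NC libraries. It was the 1 member with every si-CDCP1 library below every si-NC library, against 10.6% of all genes. Its log2 difference was -0.34 (SE 0.15, 95% interval -0.70 to 0.02, limma adjusted p = 0.366), and -0.19 without si-CDCP1 replicate 1. Its size depended on the scale, since it was -0.59 with a pseudocount of 0.1 FPKM, -0.64 with voom on all libraries and -0.76 with voom without si-CDCP1 replicate 3. Reads of Psme2 and Psme2b can be hard to tell apart, and Psme2b also overlaps the gene 9930111J21Rik1 on the same strand, so its value is uncertain.

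The assembly factors had a median difference of 0.19, with all 6 tested genes positive, although Psmd5 and Psmd9 were at -0.04 with equal FPKM sums. The proteasome assembly chaperones PAC1 to PAC4, encoded by Psmg1 to Psmg4, guide the alpha ring together. Psmg3 had 4.53, 5.24 and 4.78 FPKM in si-CDCP1 replicates 1, 2 and 3, against 3.46, 4.56 and 3.92 FPKM in si-NC replicates 1, 2 and 3. The groups overlapped slightly, and the log2 difference was 0.24 (SE 0.097, 95% interval 0.01 to 0.47, limma adjusted p = 0.344). Psmg4 had 30.2, 28.5 and 26.7 FPKM in si-CDCP1 cells and 23.9, 22.2 and 26.9 FPKM in si-NC cells. One pair of libraries crossed, and the log2 difference was 0.22 (SE 0.081, limma adjusted p = 0.320). Psmg1 had 17.9, 18.5 and 19.5 FPKM in si-CDCP1 cells, against 18.1, 15.0 and 15.3 FPKM in si-NC cells. Its si-NC replicate 1 lay among the si-CDCP1 libraries, and the log2 difference was 0.20 (SE 0.080, limma adjusted p = 0.339). The difference of Psmg2 was 0.18, and 0.08 without si-CDCP1 replicate 3. None of the 6 factors had groups that did not overlap, and their median was 0.13 without replicate 3.

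Psmd5, Psmd9 and Psmd10 are chaperones of the base. Psmd5 had 12.5, 11.6 and 12.0 FPKM in si-CDCP1 cells and 12.4, 11.6 and 11.8 FPKM in si-NC cells, a log2 difference of 0.01 (95% interval -0.11 to 0.14). Psmd9 had 7.65, 7.03 and 6.19 FPKM in si-CDCP1 cells and 6.94, 6.85 and 6.90 FPKM in si-NC cells, also 0.01 on the log2 scale (95% interval -0.17 to 0.19). Psmd10 (gankyrin), the remaining base chaperone, was under the filter at 0.743 ± 0.584 FPKM in si-CDCP1 cells and 0.906 ± 0.318 FPKM in si-NC cells.

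Psmc3ip is not a proteasome subunit but a factor of homologous pairing in meiosis. It had 8.61, 7.29 and 7.75 FPKM in si-CDCP1 cells, against 7.06, 7.08 and 6.40 FPKM in si-NC cells. The groups did not overlap, the log2 difference was 0.18 (SE 0.075, limma adjusted p = 0.350), and the gene overlaps Mlx, which averaged more FPKM, on the opposite strand.

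Replicate 3 of si-CDCP1 was also set beside the other libraries for each member. This library was the highest of all 6 libraries for 15 of 44 members (34.1%), against 34.0% of all genes, and the lowest for 7 (15.9%), against 30.0% of all genes. Set against the mean of si-CDCP1 replicates 1 and 2, it was higher for 20 members and lower for 24, between -0.26 for Psma7 and 0.29 for Psmg2 on the log2 scale. Over all genes it was higher for 51.5% and lower for 48.5%. Of the core 9 of 14 subunits were below, and of the lid 5 of 8 above. This split was a description of 1 library and was not tested.

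Gene length moved with 1 library. Members were shorter than most genes, with a median length of 2724 bases against 3980 bases over all genes tested. In si-CDCP1 replicate 1 a gene's deviation from the mean correlated with its length at a rank correlation of -0.312 across genes, while the other 5 libraries ran between -0.0437 and 0.0899. With each library's length trend removed, the median over members was 0.075, and 10 members were higher at an unadjusted p under 0.05 with all libraries, against 7.68% of all genes. Across the 44 members, length and log2 difference had a rank correlation of -0.15, and mean FPKM and log2 difference of 0.018.

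Copies of the subunit genes also had reads. Whether these came from the copies or from the subunit genes was not tested. The table listed 54 further genes or pseudogenes described as proteasome proteins, of which 7 averaged at least 1 FPKM and 29 were at 0 in all libraries. The most abundant was Gm13835, a processed pseudogene of Psma3 (mm10 chr6:31141979-31142663, minus strand). It had 46.1, 47.2 and 50.5 FPKM in si-CDCP1 replicates 1, 2 and 3, against 44.4, 40.3 and 37.1 FPKM in si-NC replicates 1, 2 and 3. These FPKM lay above those of Psma3 in every library, but they are divided by 685 bases, against 3894 bases for Psma3. In reads the copy lay below Psma3 in every library. It held 28.8%, 31.6% and 31.5% of the summed reads of gene and copy in si-CDCP1 libraries and 31.4%, 29.2% and 27.5% in si-NC libraries. With the reads summed, the log2 difference of Psma3 was 0.18, against 0.16 for the reads of Psma3 alone. The levels of Psma3, and of Psma4, Psma5 and Psmb3, which also have expressed copies, are uncertain to that extent. For Psmd11, the gene of at least 1 FPKM so described was A730017L22Rik, a processed transcript rather than a pseudogene. The Psmd11 pseudogene Gm14048 was at 0 in all libraries. Of the members, 9 overlap another gene of at least 1 FPKM, among them Psma2 with AW209491 on the same strand and Psmb7 with Nek6, Psmc3 with Slc39a13 and Psmd14 with a microRNA gene on the opposite strand. How the counting treated strand is not stated in the sources used here.

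Other genes of the pathway were read from a list of 44, of which 42 were matched by name and 40 tested. By limma 0 of 40 were called at an adjusted p under 0.05, 6 were higher and 1 lower at an unadjusted p under 0.05, against 8.94% and 5.31% of all genes, and 31 had positive differences, against 52.3% of all genes, with a median of 0.09. All values of these pathway genes are on the FPKM as deposited. With equal FPKM sums the median over all genes was -0.039, so small positive differences depend on the scaling. The 10 tested shuttle factors and segregase genes, which carry ubiquitinated proteins to the proteasome, were all positive on the deposited scale. Their median was 0.10, and the smallest difference was 0.02, for Nsfl1c. Among them Rad23b averaged 65.3 ± 3.33 FPKM in si-CDCP1 cells and 57.7 ± 1.33 FPKM in si-NC cells, a log2 difference of 0.17 (SE 0.052, limma adjusted p = 0.289). Ubqln4 averaged 49.4 ± 0.813 FPKM in si-CDCP1 cells and 45.8 ± 0.737 FPKM in si-NC cells, a log2 difference of 0.11. Both were apart between the groups.

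Sem1, a small lid subunit that the naming rule does not reach, had a difference as large as that of Psme3. It had 19.1, 17.3 and 19.4 FPKM in si-CDCP1 replicates 1, 2 and 3, against 14.4, 15.5 and 16.1 FPKM in si-NC replicates 1, 2 and 3. The groups did not overlap and the log2 difference was 0.26 (SE 0.066, limma adjusted p = 0.267). The ubiquitin receptor Adrm1 averaged 33.3 ± 1.76 FPKM in si-CDCP1 cells and 30.7 ± 1.30 FPKM in si-NC cells, a log2 difference of 0.11. The core maturation factor Pomp averaged 9.91 ± 0.801 FPKM in si-CDCP1 cells and 9.19 ± 0.0367 FPKM in si-NC cells, a log2 difference of 0.10.

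Of the transcription factors, Nfe2l1, which drives subunit genes together, had 128, 129 and 159 FPKM in si-CDCP1 replicates 1, 2 and 3, against 115, 124 and 120 FPKM in si-NC replicates 1, 2 and 3. All si-CDCP1 values were above all si-NC values, replicate 3 most, and the log2 difference was 0.20 (SE 0.089, limma adjusted p = 0.353). Its partner Mafg averaged 33.4 ± 0.664 FPKM in si-CDCP1 cells and 29.8 ± 1.000 FPKM in si-NC cells, a log2 difference of 0.16 (SE 0.047, limma adjusted p = 0.289). Nfe2l2, the related factor of the oxidative stress response, averaged 35.7 ± 2.74 FPKM in si-CDCP1 cells and 34.8 ± 0.196 FPKM in si-NC cells, a log2 difference of 0.04.

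The 9 tested bound factors had a median of 0.11, with 7 positive. Among them Akirin2, which carries proteasomes into the nucleus, had 48.0, 45.1 and 50.5 FPKM in si-CDCP1 cells and 42.0, 42.1 and 39.9 FPKM in si-NC cells. Its groups were apart, with a log2 difference of 0.21 (SE 0.056, limma adjusted p = 0.274). Txnl1, a thioredoxin-like protein of the regulatory particle, averaged 45.7 ± 5.02 FPKM in si-CDCP1 cells and 39.3 ± 1.01 FPKM in si-NC cells, also 0.21 on the log2 scale. Of the other sign, Midn, which brings proteins to the proteasome without ubiquitin, had 16.8, 16.0 and 12.1 FPKM in si-CDCP1 replicates 1, 2 and 3, against 17.0, 18.6 and 17.7 FPKM in si-NC replicates 1, 2 and 3. All si-CDCP1 values lay below all si-NC values, replicate 3 most, with a log2 difference of -0.25 (SE 0.11, limma adjusted p = 0.372). Fbxo7, which binds the inhibitor Psmf1, had a log2 difference of -0.09 with an interval that took in 0. The ubiquitin genes had a median of -0.01, with 3 of 6 positive. Rps27a, which encodes ubiquitin fused to a ribosomal protein, scattered most, with 61.8, 148 and 55.6 FPKM in si-CDCP1 replicates 1, 2 and 3, against 197, 117 and 163 FPKM in si-NC replicates 1, 2 and 3. The groups overlapped, and the log2 difference was -0.95 (SE 0.37, limma adjusted p = 0.334).

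**Figure D5:**
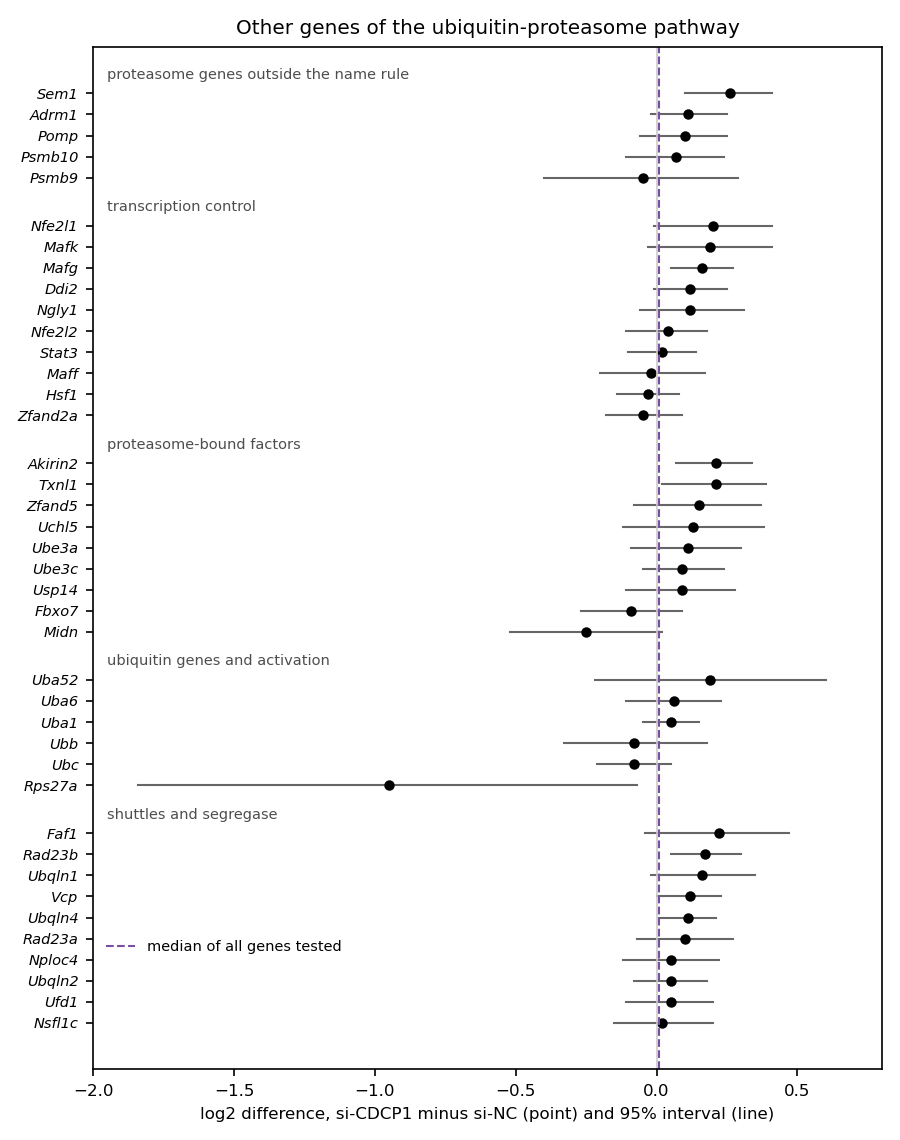
Log2 difference of si-CDCP1 minus si-NC, with its 95% interval from limma, for the 40 tested genes of the ubiquitin-proteasome pathway outside the set, grouped by role. Sem1, Nfe2l1 and Akirin2 lie to the right of the median of all genes, and Rps27a lies far to the left with the widest interval.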

How the data were processed

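RNA was measured in 6 libraries, 3 si-CDCP1 and 3 si-NC. The values are FPKM, which the authors deposited in 1 table with gene lengths, types and mouse Ensembl identifiers, per the file headers. The build is mm10 per the submitters' processing notes. The sources used here do not give the aligner, the counter or the treatment of reads that match several places. FPKM times gene length gave whole reads for 100.0% of values (within 0.01). The listed reads were 99.9%, 99.9% and 104% of the library totals so implied in si-CDCP1 replicates 1, 2 and 3 and 98.4% in each si-NC library, so the FPKM were not scaled by listed reads alone. The precision follows from the reads: tested members had between 9 and 6253 reads in a library, and 33 of 44 had at least 1000 in each.

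The 12080 genes whose mean reached 1 FPKM were tested on log2(FPKM + 1) with limma 3.58.1 in R 4.3.3 (intensity trend, two-sided, Benjamini-Hochberg over all genes tested, threshold 0.05). This scale understates the change of low genes. The limma and voom fits on all libraries were tested on simulated reads, with changes larger than the positive differences reported for the members. The other settings were not part of that test. Members, lists and tests were chosen with earlier results of these data known. Named genes are the largest and smallest difference of each part, every member at an unadjusted p under 0.05 or with groups that do not overlap, and, of the other pathway genes, those at an unadjusted p under 0.05 and, in any case, Nfe2l1, Nfe2l2, Psmb8, Psmb9, Psmb10, Pomp, Adrm1 and Sem1. Other members are named with their differences. Psmb5, Psma7, Gm13835, Midn, Fbxo7 and the markers Cd68 and Pdgfra were singled out after their values were seen. No sequences were used here.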

Additional observations from a re-analysis of the deposited data

How the results depend on the processing

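The count of all genes called at an adjusted p under 0.05 was 0 by limma on all libraries and 0 or 1 with any 1 library left out, against 1080 higher and 642 lower at an unadjusted p under 0.05. It was 1 with equal FPKM sums, with the median log ratio and with the replicate block, 2 with quantile normalisation and with protein-coding genes only, 3 with the length trend removed, 4 with a mean of at least 5 FPKM, 5 with voom and 7 without a filter. It was 13 with the length trend removed and si-CDCP1 replicate 3 left out, a setting chosen after the data had been seen, 493 with voom without that library, and 865 with library weights. The count of members called was 8 with library weights and 6 with voom without si-CDCP1 replicate 3, and 0 in the other 18 settings. The 14 members higher at an unadjusted p under 0.05 became 6 with equal sums, 22 with weights, 5 with quantile normalisation, 9 with the replicate block, and between 6 and 17 with 1 library left out. The count lower, 0, became 1 (Psme2b) with equal sums, without the trend and with protein-coding genes only, and 0 or 1 with 1 library left out (1, again Psme2b, without si-CDCP1 replicate 2). The median over members, 0.109, became 0.055 with equal sums, 0.075 and 0.081 with the length trend removed from all libraries and without si-CDCP1 replicate 3, 0.024 with quantile normalisation, and between 0.099 and 0.120 with 1 library left out. With the median log ratio that median was 0.099, and 12 members were higher at an unadjusted p under 0.05. Equal sums turned the split of genes at an unadjusted p under 0.05 to 537 higher and 1301 lower (29.2% higher, against 62.7%), quantile normalisation to 790 and 798 (49.7%). Of the members, 29 kept their sign in every setting and 15 did not. The labels do not say whether replicate numbers pair the libraries. Same-numbered deviations from the group means correlated at -0.02, 0.0265 and 0.0223. These values cannot exclude a pairing, since effects of single libraries could hide it. The replicate block called 0 members, and its 9 members higher at an unadjusted p under 0.05 stood against 8.23% of all genes.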
